A study of Mus musculus with 36 samples.

Results

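Lung lavage macrophages of wildtype (WT) mice were compared between postnatal day (PND) 10, before weaning, and PND 42, in young adults. The comparison held 8 of the 36 arrays of the study, 4 at each age, chosen by genotype, age and housing as labelled. Each PND 10 array held cells pooled from 3 pups and each PND 42 array held cells of a single mouse. All 8 came from the strain labelled C57Bl/6N Tac, kept under specific-pathogen-free conditions. The study worked with males and the WT mice were littermates of transgenic mice. These Scnn1b-Tg littermates, which overexpress the epithelial sodium channel subunit Scnn1b in airway club cells and clear mucus poorly, were used only to ask whether the WT change differed from theirs, with 4 Tg arrays at PND 10 and 4 at PND 42 in the same housing. WT arrays at PND 0 (n = 3), at PND 3 (n = 4) and from germ-free housing at PND 42 (n = 3) are given as levels beside some results. The study describes lavage cells from which Ly-6G-bearing granulocytes were removed on magnetic beads, so the cells were purified by what they lacked and could hold other Ly-6G-negative lavage cells.

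Alveolar macrophages live in the airspaces, where they take up surfactant, inhaled particles and dying cells. They arise from fetal monocytes, take on their identity in the first days after birth under GM-CSF and TGF-beta, and then renew themselves by division in place. In alternative activation, the type 2 cytokines Il4 and Il13 act through the transcription factor STAT6 and raise genes such as Arg1, Retnla and Ccl24. MHC class II molecules show peptides to CD4+ T cells, and their genes are switched on together by the transactivator Ciita.

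The measured features fit the label of macrophages at both ages. Of the defining macrophage markers, Lyz2 (lysozyme) lay between 11.91 and 12.11 log2 units in the 8 arrays, Cd68 between 11.44 and 11.66, Mertk between 9.43 and 9.93 and Csf1r between 8.60 and 8.84. Of the alveolar markers, Siglecf lay between 9.07 and 9.81, Itgax between 10.13 and 10.53, Car4 between 10.90 and 11.48, Chil3 between 11.69 and 12.31, Mrc1 between 10.88 and 11.23, Pparg between 9.19 and 9.52, Marco between 8.24 and 9.25 and Fabp4 between 6.18 and 7.79. None of these, nor Adgre1 (8.66 to 9.34), passed the test between the ages (limma adjusted p of 0.325 or more, with an unadjusted p under 0.05 for Car4 alone). Values are log2 RMA intensities, and the array medians, 3.74 to 3.78, serve here as the level near background. Fewer cells of a type and less RNA per cell cannot be told apart in such bulk samples.

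Arrays of the same age correlated with r between 0.987 and 0.993 across features. PND 10 pool 4 stood apart from the other pools. On the second principal component, which held 15.9% of the variance, it lay at -34.4, while pools 1 to 3 lay between 8.8 and 18.5 and the PND 42 mice between -6.2 and 1. The first component (36.1%) separated the ages, with the pools between -32.5 and -16.9 and the mice between 19.3 and 28.7. The female transcript Xist was at background in all 8 arrays (3.02 to 3.27) and the Y-linked Kdm5d was expressed in all 8 (5.97 to 6.59). Xist was high in replicates 1 and 2 of the WT germ-free group (9.62 and 9.54) and in replicates 1 and 4 of the WT PND 3 group (8.39 and 8.10), which goes against their description as males, and levels of these groups are given with that limit. Xist also reached 9.78 in the WT PND 0 group, whose levels carry the same limit.

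Between PND 10 and PND 42, 249 of the 28940 annotated features (0.860%) changed at least 2-fold with a Benjamini-Hochberg adjusted p under 0.05 in limma, 118 upward and 131 downward. Without the fold limit, 381 features (1.32%) rose and 343 (1.19%) fell, and the median change over all features was 0.01 on the log2 scale. Counted once per gene, 321 of 18820 genes (1.71%) rose and 268 (1.42%) fell. These shares of all genes stand beside each list count below, and no list was tested as a set. The 249 features named 95 genes that rose and 109 that fell. In 2622 features (9.06%) every array of an age lay beyond every array of the other age, and this held for 243 of the 249. Single genes are said below to have risen or fallen where their adjusted p was under 0.05.

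**Figure D1:**
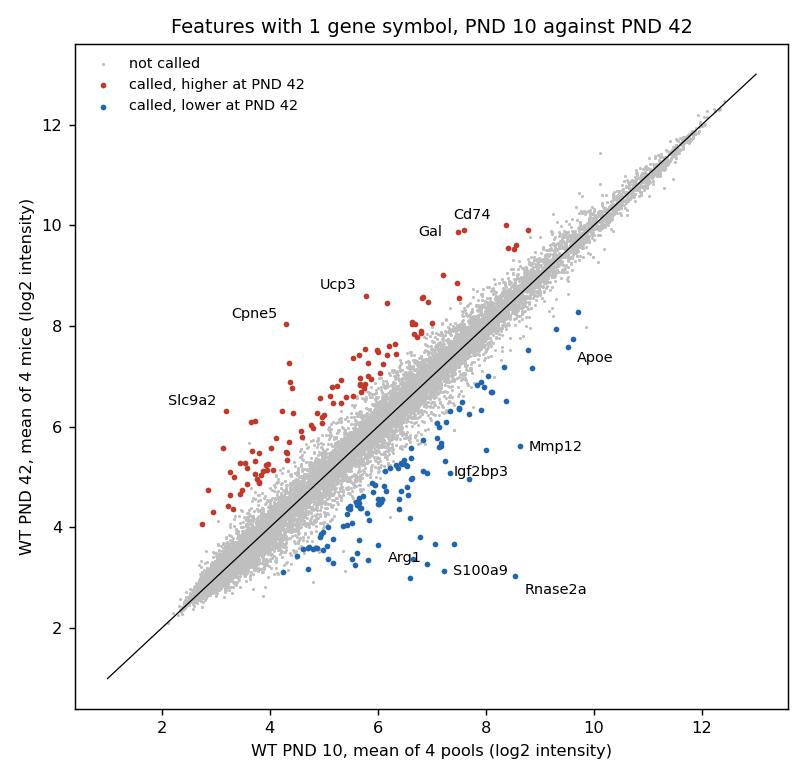
Mean log2 intensity of each feature with 1 gene symbol in the 4 WT PND 10 pools (horizontal axis) against the 4 WT PND 42 mice (vertical axis). Coloured points changed at least 2-fold with an adjusted p under 0.05, red upward and blue downward, and Rnase2a, S100a9 and Cpne5 lie farthest from the line of equal level among the genes labelled.

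Among features with 1 established gene symbol, Rnase2a, a member of the alternative activation list, gave the largest fall. Of 30 measured members of that list, 8 fell, namely Rnase2a, Fbp1, Ccl24, Arg1, Retnla, Alox15, Irf4 and Cdh1, while Flt1 rose and 21 did not pass. The median change of the list was -0.26, against 0.02 over all genes, and 1.42% of all genes fell. All but Irf4 and Cdh1 were expressed in every PND 10 pool and had a PND 42 mean below the highest array median.

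Rnase2a, an eosinophil-associated ribonuclease, measured 6.08, 8.87, 8.0 and 11.24 in pools 1 to 4 and 2.94, 3.28, 2.94 and 3.01 in the 4 mice at PND 42. All pools lay far above all mice, and pool 4 was the highest. The change was -5.50 ± 0.84 (log2 ± SE, n = 4 and 4), a 45.4-fold lower intensity, with a limma adjusted p of 0.000129. Each SE here and below rests on a spread per feature estimated over all 36 arrays, not on these 8 alone. The SD of Rnase2a itself was 2.14 in the pools and 0.16 in the mice. Rnase2a belongs to a family of close paralogs whose RNA its probes may also read. Where the lower level is near background, as here, a fold is the ratio of the measured intensities only.

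Retnla, the secreted resistin-like molecule alpha, measured 4.74, 7.04, 5.75 and 9.07 in the pools against 3.48, 3.69, 3.03 and 3.28 in the mice. The ages did not overlap, and the level at PND 42 was at background. Retnla fell by 3.28 ± 0.73 (9.71-fold, limma adjusted p = 0.00868). Its neighbour Retnlg, which was placed in the neutrophil list, measured 6.12, 7.52, 6.94 and 9.05 against 3.32, 3.6, 3.64 and 4.12. It fell by 3.74 ± 0.74 (13.4-fold, limma adjusted p = 0.00297), with the pools in the same order as for Retnla.

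The promoters of these neighbours on mouse chromosome 16 are shown because both genes moved together and share a stretch with the spacing of a STAT6 site. Both stretches are on the plus strand of GRCm38.p6 and come from RefSeq, at chr16:48842434-48842503 for Retnla (175 to 106 bases before the start) and chr16:48872506-48872575 for Retnlg (102 to 33 bases before the start). Capitals mark TTCNNNNGAA.
Retnla: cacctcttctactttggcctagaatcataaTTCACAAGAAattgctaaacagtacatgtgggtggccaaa
Retnlg: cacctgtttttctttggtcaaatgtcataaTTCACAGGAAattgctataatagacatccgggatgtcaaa
Of the 70 bases, 51 (72.9%) were identical. TTCNNNNGAA, which reads the same on both strands, was found in the 250 bases before the start of 5.85% of 32851 promoters. Among members of the alternative activation list with an entry it was found in 4 of 21, namely Retnla, Ccl17, Pdcd1lg2 and Il1rn. Of the 9 members that passed, 5 had an entry, and only Retnla of these carried the motif. Such a match describes letters and does not show binding.

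Metabolic enzymes and chemokines of the list followed. Fbp1, fructose bisphosphatase of gluconeogenesis, measured 5.44, 7.59, 5.29 and 9.33 in the pools against 3.15, 3.08, 3.46 and 3.43, and fell by 3.63 ± 0.69 (12.4-fold, limma adjusted p = 0.00182). Ccl24, an eosinophil attractant also called eotaxin-2, measured 4.78, 6.23, 5.94 and 9.43 against 3.03, 3.03, 2.95 and 2.94, and fell by 3.61 ± 0.79 (12.2-fold, limma adjusted p = 0.00765). Arg1, arginase, measured 5.80, 7.02, 6.71 and 8.70 against 3.51, 3.82, 3.55 and 3.78, and fell by 3.39 ± 0.64 (10.5-fold, limma adjusted p = 0.00165). In all 3 genes every pool lay above every mouse. Alox15, a lipoxygenase that oxidizes polyunsaturated fatty acids, measured 4.32, 6.56, 5.27 and 7.13 against 3.43, 3.13, 3.38 and 3.50, and fell by 2.46 ± 0.60 (limma adjusted p = 0.0178). Irf4, a transcription factor of this program, fell by 1.43 ± 0.38 (limma adjusted p = 0.0356) and Cdh1, the adhesion molecule E-cadherin, by 0.86 ± 0.19 (limma adjusted p = 0.00708). Mmp12, the macrophage elastase, was not a member of the list and measured 7.41, 9.0, 8.06 and 10.06 against 5.72, 5.54, 5.51 and 5.70. It remained expressed at PND 42 and fell by 3.02 ± 0.38 (8.09-fold, limma adjusted p = 7.83e-06).

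The pools differed among themselves in the same way for most of these genes. All 8 members that fell were highest in pool 4, and in 7 of the 8, Fbp1 being the exception, the pools ranked 4, 2, 3 and 1 from high to low, an order seen in 12.8% of the 109 genes with called falls and in 4.67% of all genes. Without pool 4 the changes of Retnla (-2.47), Ccl24 (-2.66), Alox15 (-2.02) and Irf4 (-1.0) no longer passed, those of Rnase2a (-4.60) and Fbp1 (-2.83) shrank by more than 1.5-fold and still passed, and 5 members of the list passed in place of 9. Without pool 1 the changes grew to -6.33 for Rnase2a, -4.21 for Ccl24 and -3.92 for Retnla. Alox15 also lost its call without pool 2 (-2.21) or PND 42 mouse 2 (-2.38), and Irf4 without pool 2 (-1.5) or any of the PND 42 mice (-1.51 to -1.35).

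**Figure D2:**
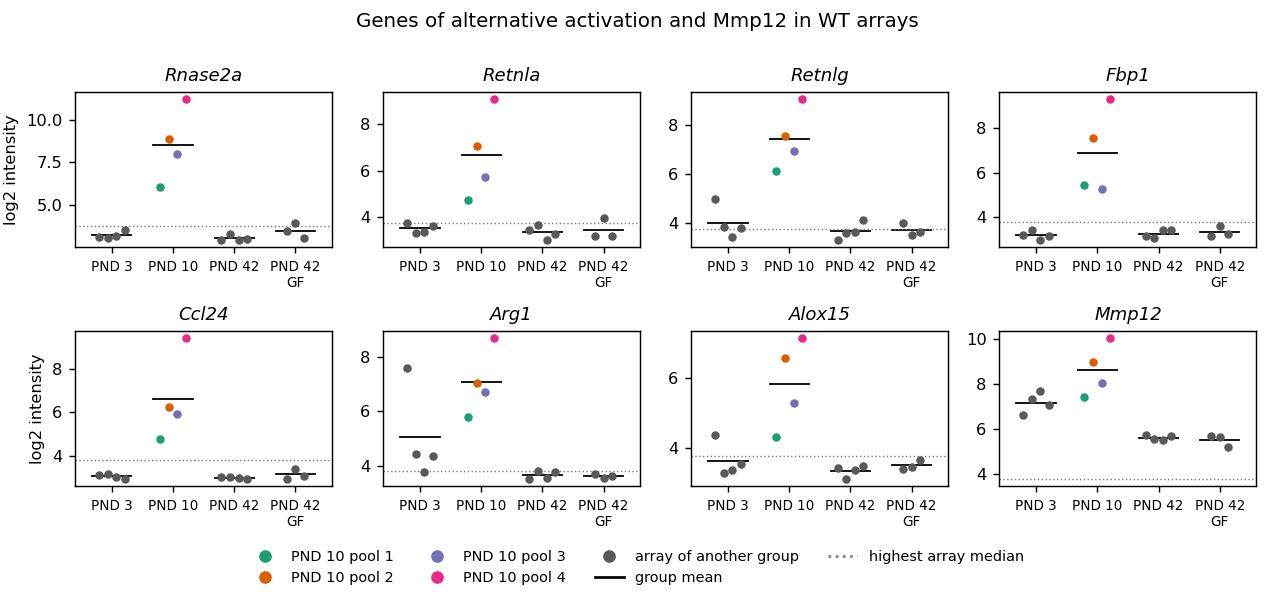
Log2 intensity (vertical axis) of Rnase2a, Retnla, Retnlg, Fbp1, Ccl24, Arg1, Alox15 and Mmp12 in each WT array at PND 3, PND 10, PND 42 and PND 42 in germ-free (GF) housing. Lines are group means, the dotted line is the highest array median, and pool 4 of PND 10 is the highest array in all 8 panels.

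Levels at the other ages frame the fall. At PND 0 the WT means were 3.05 for Rnase2a, 6.48 for Retnla, 3.82 for Fbp1, 3.15 for Ccl24 and 3.43 for Alox15. Arg1 averaged 6.22 and Mmp12 7.91 at that age. At PND 3 the WT means were 3.21 for Rnase2a, 3.53 for Retnla, 3.20 for Fbp1, 3.05 for Ccl24 and 3.64 for Alox15, all near background, while Arg1 averaged 5.03 and Mmp12 7.16. In germ-free WT mice at PND 42 these genes averaged 3.48, 3.47, 3.35, 3.13, 3.51, 3.62 and 5.51 in the same order.

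Of 3 transcripts of type 2 immunity chosen after their values were seen, Il13 passed. Il13, the type 2 cytokine, measured 5.02, 5.28, 4.59 and 5.77 in the pools and 3.33, 3.04, 3.48 and 3.31 in the mice, and fell by 1.88 ± 0.41 (limma adjusted p = 0.00727). Ccl17, a chemokine for Ccr4-bearing T cells, measured 7.65, 10.60, 9.26 and 11.90 against 8.03, 7.89, 8.15 and 7.86, so that pool 1 lay below all mice and the other pools above, and the change of -1.87 did not pass (limma adjusted p = 0.136). Il4 lay between 2.56 and 3.59 in all 8 arrays, at background.

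Of 12 measured eosinophil markers 2 fell, Rnase2a and Alox15, both of which are also in the alternative activation list, and 10 did not pass. Cell counts that the study gives for the purified fractions list no eosinophils in the WT pools and few or none in the WT mice. The part of eosinophils in the falls was not tested. The summed level of the eosinophil list ran from 53.6 to 68.4 in the pools and from 47.7 to 48.5 in the mice. Its list means were 4.46, 5.17, 4.90 and 5.70 in pools 1 to 4. Sums and means include Rnase2a and Alox15, so they are not independent of those 2 falls. Prg2, the granule major basic protein, measured 3.27, 5.63, 4.32 and 5.99 in the pools and 2.80 to 3.03 in the mice (change -1.88, limma adjusted p = 0.124). The eotaxin receptor Ccr3 reached 5.80 in pool 4 and lay between 3.05 and 3.79 in the other 7 arrays (limma adjusted p = 0.392). Epx, the eosinophil peroxidase, was at background in all 8 arrays (3.12 to 3.37).

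S100a9 and S100a8, calcium-binding partners that monocytes and neutrophils express, fell and were highest in pool 1. S100a9 measured 8.88, 5.91, 6.61 and 7.53 in the pools and 3.17, 3.51, 2.90 and 2.97 in the mice. The ages did not overlap. S100a9 fell by 4.10 ± 0.80 (17.1-fold, limma adjusted p = 0.00277), and its partner S100a8 measured 10.55, 9.07, 9.40 and 9.40 against 8.35, 8.01, 7.29 and 7.35, and fell by 1.85 ± 0.31 (limma adjusted p = 0.000406). Both had been high at PND 3, with means of 8.11 and 10.98.

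Itgam, the CD11b integrin chain of monocytes and granulocytes that mature alveolar macrophages carry at low level, measured 6.56, 6.25, 5.93 and 7.61 in the pools against 4.09, 4.28, 3.97 and 4.38, and fell by 2.41 ± 0.41 (limma adjusted p = 0.000581). It averaged 7.59 at PND 3. Tarm1, an activating receptor of myeloid cells, measured 6.28, 5.28, 5.83 and 6.59 against 3.75, 3.90, 3.6 and 3.35 (change -2.34 ± 0.47, limma adjusted p = 0.00354). Cstdc4, one of several near-identical stefin genes whose RNA the probes may not tell apart, measured 8.57, 6.12, 7.06 and 5.38 against 4.67, 3.84, 3.45 and 3.28 (change -2.97 ± 0.69, limma adjusted p = 0.0127). Its change no longer passed without pool 1 (-2.38) or PND 42 mouse 4 (-2.80).

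Of 22 measured neutrophil markers 3 fell (S100a9, S100a8 and Retnlg) and Mmp8, neutrophil collagenase, rose by 1.43 ± 0.37 (limma adjusted p = 0.0275), a call that was lost without any of 6 arrays (changes of 1.19 to 1.49). In all 8 arrays, 10 members of the list were near background. Over all genes 1.42% fell and 1.71% rose. The list mean was 4.98, 4.61, 4.71 and 4.69 in the pools and 4.18 to 4.26 in the mice. Cell counts that the study gives for the purified fractions list no neutrophils in the WT pools and few or none in the WT mice. The part of neutrophils in the result was not tested. Of 21 monocyte markers Itgam fell and 20 did not pass. Of 19 markers of interstitial macrophages 3 fell and none rose, a list that holds Trem2 and Apoe, and that count was 2 without any array other than pool 2.

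Secreted signals moved both ways. Of 30 measured members of the interleukin and TNF family ligand list, which does not hold Il13, 4 fell and 2 rose. Ebi3, a chain shared by cytokines of the IL-12 family, measured 8.52, 8.22, 7.93 and 7.38 in the pools against 5.52, 5.87, 5.22 and 5.54. Its ages lay far apart, and it fell by 2.47 ± 0.27 (5.56-fold, limma adjusted p = 6.36e-07). Il1a and Il1b, fever-inducing inflammatory cytokines, fell by 1.41 ± 0.30 (limma adjusted p = 0.00617) and 1.55 ± 0.36 (limma adjusted p = 0.0138), and Csf1, the macrophage growth factor, by 1.41 ± 0.31 (limma adjusted p = 0.00927). The Il1b call was lost without pool 2 or without any of PND 42 mice 2 to 4 (-1.47 to -1.40), and the Csf1 call without pool 4 (-1.14). The risers were Tnfsf13b and Tgfb2, described further on.

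Of 16 CC chemokines Ccl9 and Ccl24 fell and none rose. Ccl9, which attracts myeloid cells through Ccr1, measured 8.22, 8.61, 9.10 and 9.48 against 6.79, 7.69, 6.84 and 7.38, and fell by 1.68 ± 0.23 (3.21-fold, limma adjusted p = 3.07e-05). The count was 4 without pool 1 and 1 without pool 4. None of 14 CXC chemokines and none of 15 chemokine receptors passed.

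Lipid, amino acid and glucose genes fell as single genes rather than as whole lists. Apoe, the apolipoprotein that macrophages secrete with cholesterol, measured 10.45, 9.33, 9.32 and 8.95 in the pools against 7.27, 7.92, 7.53 and 7.57. Every pool lay above every mouse, and Apoe fell by 1.94 ± 0.26 (3.84-fold, limma adjusted p = 2.39e-05). It and Apoc2 (change -1.29 ± 0.23, limma adjusted p = 0.000961) were the falls among 16 measured genes of sterol efflux and apolipoproteins. Trem2, a lipid receptor of macrophages, fell by 0.95 ± 0.13 (limma adjusted p = 4.59e-05).

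Asns, asparagine synthetase, measured 6.76, 7.60, 7.59 and 7.44 against 4.63, 5.34, 5.22 and 5.13 and fell by 2.27 ± 0.27 (4.81-fold, limma adjusted p = 4.02e-06). Slc7a11, the cystine importer, fell by 1.43 ± 0.30 (limma adjusted p = 0.00448), and Tfrc, the transferrin receptor that takes up iron, by 1.31 ± 0.19 (limma adjusted p = 6.86e-05). Of 25 genes of glycolysis and gluconeogenesis 3 fell and 1 rose. Ldhb, a lactate dehydrogenase chain, measured 6.43, 5.38, 5.14 and 5.15 against 3.25, 3.36, 3.23 and 3.67 and fell by 2.15 ± 0.27 (4.43-fold, limma adjusted p = 8.02e-06), Slc2a1, the glucose transporter, fell by 1.03 ± 0.17 (limma adjusted p = 0.000495), and the remaining fall was Fbp1. Mfge8, which bridges dying cells to phagocytes, fell by 1.66 ± 0.30 (limma adjusted p = 0.000961).

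Igf2bp3, an RNA-binding protein of fetal tissues that binds Igf2 mRNA, gave the smallest adjusted p among the named falls. It measured 7.15, 7.43, 7.26 and 7.10 in the pools against 5.25, 5.27, 5.25 and 5.51 in the mice. The spread within each age was small beside the fall of 1.92 ± 0.13 (3.78-fold, limma adjusted p = 1.97e-11). Its WT mean had been 7.64 at PND 3 and was 4.44 in germ-free adults. It was the member that passed of 16 measured genes of the imprinted and fetal growth list. Hopx, a homeodomain protein also used as a marker of alveolar type 1 cells, fell by 1.51 ± 0.19 (limma adjusted p = 7.2e-06), and none of the other 19 markers of alveolar type 1 and type 2 cells passed.

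Mitosis genes that passed fell by small amounts. Of 29 measured mitosis genes 16 fell and none rose, all 29 changes were negative, and the median change was -0.71. Mki67, the proliferation antigen, measured 8.49, 8.84, 8.61 and 8.61 in the pools and 7.72, 7.71, 7.84 and 7.75 in the mice, and fell by 0.88 ± 0.16 (1.84-fold, limma adjusted p = 0.00128). It remained well above background in the adults. Kif2c, a kinesin that depolymerizes microtubules at kinetochores, fell by 1.28 ± 0.19 (limma adjusted p = 9.63e-05), the kinase Plk1 by 0.97 ± 0.18 (limma adjusted p = 0.00185) and the checkpoint kinase Bub1 by 0.93 ± 0.19 (limma adjusted p = 0.00528).

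Of 28 genes of DNA replication and nucleotide synthesis 4 fell and 26 changes were negative (median -0.34). E2f8, an E2F family repressor that cycling cells express, fell by 0.98 ± 0.17 (limma adjusted p = 0.000842). Of 8 measured replication-dependent histone genes 3 fell, among them the linker histones H1f5 (-1.35 ± 0.20, limma adjusted p = 6.64e-05) and H1f1 (-1.83 ± 0.34, limma adjusted p = 0.00178), with a list median of -0.89. These counts changed with the arrays. For mitosis 10 passed without pool 2, 8 without pool 3 and 9 without PND 42 mouse 2, and for DNA replication at most 2 passed without pool 2 or 3 or without PND 42 mouse 2, 3 or 4, with 0 without pool 3 and without mouse 4. The mean level of the mitosis list was 7.01, 7.39, 7.51 and 7.07 in the pools and 6.32 to 6.66 in the mice.

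Of 18 measured genes of MHC class II presentation 5 rose, none fell and 13 did not pass, and the list median was 0.16, against 0.02 over all genes. The risers were the invariant chain Cd74, the class II chains H2-Ab1, H2-Aa and H2-Eb1, and the transactivator Ciita, while the peptide-loading chain H2-DMa, chosen after its values were seen, was high at both ages (8.69 to 9.38) and its change of 0.24 did not pass (limma adjusted p = 0.856).

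Cd74 measured 6.81, 7.20, 7.47 and 8.88 in the pools and 9.74, 9.69, 10.28 and 9.93 in the mice. Pool 4 came nearest to the adults, the ages did not overlap, and Cd74 rose by 2.32 ± 0.43 (4.99-fold, limma adjusted p = 0.00129). H2-Ab1 measured 5.17, 5.62, 5.80 and 8.08 against 8.26, 8.22, 8.65 and 8.68, so that pool 4 fell just short of the lowest adult (change 2.28 ± 0.56, limma adjusted p = 0.0197). H2-Aa measured 6.49, 6.58, 7.12 and 8.66 against 9.02, 8.85, 9.22 and 8.98 (change 1.81 ± 0.47, limma adjusted p = 0.0315). H2-Eb1 measured 5.01, 4.50, 5.17 and 6.31 against 6.47, 6.85, 7.07 and 6.87 (change 1.57 ± 0.38, limma adjusted p = 0.0169). Ciita lay near background in the pools, at 3.39, 3.82, 3.69 and 3.64, and at 4.14, 3.97, 4.42 and 4.06 in the mice (change 0.51 ± 0.11, limma adjusted p = 0.00628).

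Among the pools, Cd74, H2-Ab1 and H2-Aa were highest in pool 4 and lowest in pool 1. H2-Eb1 was highest in pool 4 and lowest in pool 2, and Ciita highest in pool 2 and lowest in pool 1. The H2-Ab1 call was lost without pool 1 (1.95), 2 (2.10) or 3 (2.16) and without PND 42 mouse 3 (2.22) or 4 (2.21), and its change was 2.92 without pool 4. H2-Aa lost its call without any array other than pool 4, with a change between 1.57 and 1.86. H2-Eb1 lost its call without pool 1 (1.49) or 2 (1.32) and without PND 42 mouse 3 (1.48) or 4 (1.55). The count of members passing fell to 2 without pool 1 or 2 and without mouse 3 or 4, to 3 without pool 3, and to 3 in a fit of the 8 WT arrays alone. At PND 3 the WT means were lower still, at 5.99 for Cd74, 4.51 for H2-Ab1, 5.81 for H2-Aa and 4.44 for H2-Eb1. Of 19 dendritic cell markers, whose cells also carry class II, none rose and Irf4 fell, and none of 15 B cell and plasma cell markers passed. Both age means were near background for 8 of the dendritic and 12 of the B cell markers. Of the dendritic cell changes 16 were positive, with a median of 0.14. The dendritic list mean was 4.63, 4.79, 4.64 and 5.04 in pools 1 to 4 and 4.87 to 4.97 in the mice. The part of dendritic cells and B cells in the class II rises was not tested.

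Class II promoters carry an X box, bound by the RFX complex, and a Y box holding an inverted CCAAT, bound by NF-Y, at a fixed spacing, which is why a pair of them is shown. They come from RefSeq on GRCm38.p6, at chr17:34287852-34287919 on the minus strand for H2-Aa (96 to 29 bases before the start) and at chr17:34305761-34305827 on the plus strand for H2-Eb1 (106 to 40 bases before the start). Capitals mark GCAAC, within the X box, and ATTGG, the inverted CCAAT of the Y box.
H2-Aa: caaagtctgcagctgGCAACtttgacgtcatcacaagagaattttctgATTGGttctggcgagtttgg
H2-Eb1: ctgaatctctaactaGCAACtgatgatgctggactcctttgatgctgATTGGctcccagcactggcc
The gap between the capitals was 28 bases in H2-Aa and 27 in H2-Eb1. CCAAT or ATTGG alone occurred in 33.8% of 32851 promoters and in 10 of 14 list members with an entry. GCAAC followed after 24 to 30 bases by ATTGG, a pattern chosen after these sequences were read, occurred in 0.271% of promoters and in 5 of those 14 members. Of the 5 risers only these 2 had an entry that could be searched here.

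Among features with 1 established gene symbol, Cpne5 and Slc9a2 gave the largest rises. Cpne5, a copine that binds membrane lipids in response to calcium, measured 4.30, 4.42, 3.97 and 4.48 in the pools and 8.18, 7.74, 8.19 and 8.07 in the mice. It rose by 3.75 ± 0.29 (13.5-fold, limma adjusted p = 8.76e-10). Slc9a2, a sodium-proton exchanger, measured 3.34, 3.14, 3.05 and 3.24, at background, against 6.32, 6.21, 6.39 and 6.36, a rise of 3.12 ± 0.19 (limma adjusted p = 1.73e-12). Their WT means were 3.64 and 3.02 at PND 3 and 8.17 and 6.39 in germ-free adults.

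Ucp3, a mitochondrial carrier of the uncoupling protein family, measured 5.45, 5.61, 5.46 and 6.63 against 8.65, 8.40, 8.62 and 8.72 and rose by 2.81 ± 0.21 (7.01-fold, limma adjusted p = 5.72e-10). Pnpla5, a lipase of the patatin-like family, rose by 2.43 ± 0.19 (5.39-fold, limma adjusted p = 9.3e-10). Lrg1, a secreted leucine-rich glycoprotein, measured 4.55, 3.57, 4.14 and 5.17 against 6.74, 7.67, 7.24 and 7.41 and rose by 2.91 ± 0.44 (7.51-fold, limma adjusted p = 9.63e-05). Gca, the calcium-binding protein grancalcin, rose by 2.50 ± 0.31 (5.64-fold, limma adjusted p = 5.29e-06), and the neuropeptide galanin, Gal, measured 7.25, 7.56, 7.83 and 7.30 against 9.95, 9.91, 9.80 and 9.81 and rose by 2.38 ± 0.43 (5.21-fold, limma adjusted p = 0.00121). In each of these genes the ages did not overlap.

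**Figure D3:**
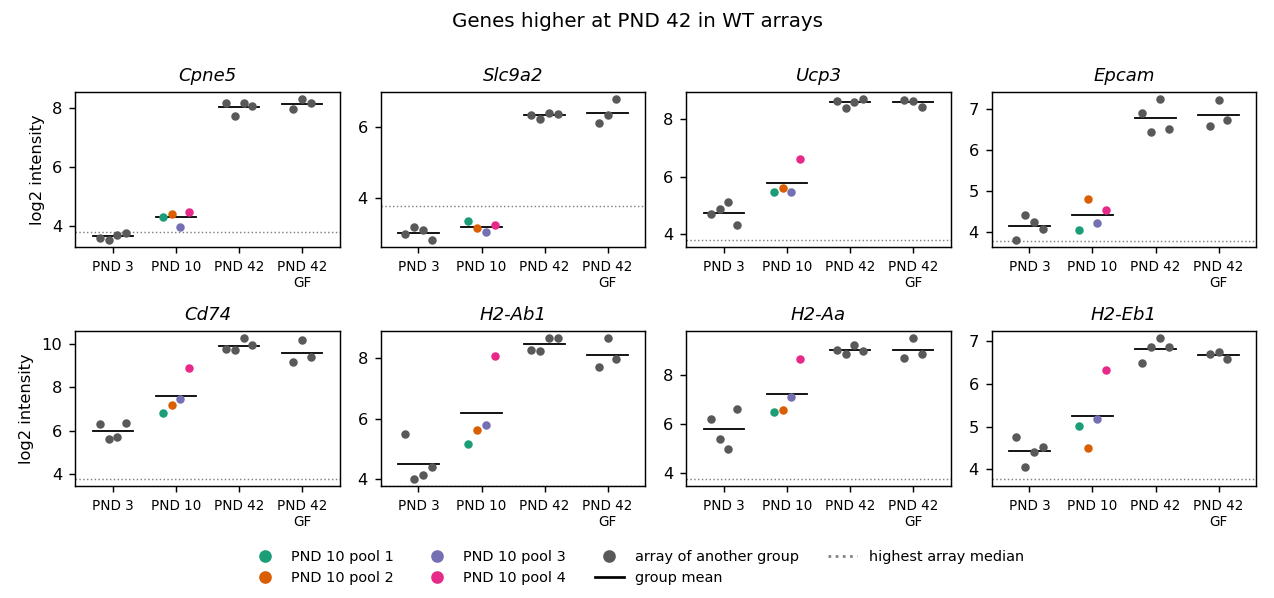
Log2 intensity (vertical axis) of Cpne5, Slc9a2, Ucp3, Epcam, Cd74, H2-Ab1, H2-Aa and H2-Eb1 in each WT array at PND 3, PND 10, PND 42 and PND 42 in germ-free (GF) housing. Lines are group means and the dotted line is the highest array median, and in the class II panels pool 4 lies between the other pools and the adults.

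Some epithelial genes were among the rises, while Hopx and Cdh1 fell and most epithelial markers did not pass. Epcam, the epithelial adhesion molecule, measured 4.06, 4.81, 4.23 and 4.54 in the pools against 6.91, 6.43, 7.25 and 6.5 and rose by 2.36 ± 0.24 (5.14-fold, limma adjusted p = 3.31e-07). Bpifa1, an airway secretory protein, measured 3.71, 3.33, 3.11 and 3.24 against 5.30, 5.28, 4.48 and 4.93 and rose by 1.65 ± 0.25 (limma adjusted p = 0.000136). Scgb1a1, the main club cell secretory protein, measured 6.59, 4.72, 4.78 and 7.86 against 7.23, 7.60, 7.91 and 7.36. Pool 4 lay within the adult range, and the change of 1.54 ± 0.43 was at the limit (limma adjusted p = 0.0496). The Scgb1a1 change was 2.16 without pool 4 and did not pass without any array other than pools 1 and 4.

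These 3 were the risers among 20 club and goblet cell markers, of which 12 had a negative change, with a median of -0.06. Over all genes 1.71% rose. The ciliated cell gene Tppp3, one riser of 14 ciliated cell markers, rose by 1.75 ± 0.41 (limma adjusted p = 0.0138), and lost its call without pool 4 (1.5) or PND 42 mouse 3 (1.63). The tight junction gene Ocln, occludin, measured 3.43, 3.68, 3.37 and 3.34 against 4.92, 5.07, 5.48 and 5.62 and rose by 1.82 ± 0.17 (limma adjusted p = 6.69e-08). The part of epithelial cells in these rises was not tested.

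Tnfsf13b and Tgfb2 were the risers of the interleukin and TNF family ligand list. Tnfsf13b, the B cell survival factor BAFF, measured 3.41, 3.14, 3.30 and 3.20 in the pools, at background, against 5.09, 4.84, 5.35 and 5.10 and rose by 1.83 ± 0.17 (3.56-fold, limma adjusted p = 4.61e-08). Tgfb2, transforming growth factor beta 2, measured 3.45, 3.54, 3.46 and 3.35 against 4.53, 4.36, 4.92 and 4.85 and rose by 1.21 ± 0.14 (2.32-fold, limma adjusted p = 3.34e-06). Germ-free adults averaged 5.10 for Tnfsf13b and 3.70 for Tgfb2, so their Tgfb2 lay near the PND 10 level and their Tnfsf13b at that of the other adults. In WT adults the Tgfb2 level in germ-free housing was 0.97 log2 units lower (limma adjusted p = 0.0014), with the housing groups also differing in Xist as given above.

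Of 23 Toll-like receptors and co-receptors 3 rose and none fell, beside 1.71% and 1.42% of all genes. Tlr5, the flagellin receptor, measured 6.69, 7.05, 6.88 and 6.31 against 7.97, 7.85, 7.81 and 7.53 and rose by 1.06 ± 0.20 (2.08-fold, limma adjusted p = 0.00152). Cd14, the endotoxin co-receptor, measured 8.01, 7.74, 7.75 and 7.85 against 8.48, 8.42, 8.48 and 8.33 (change 0.59 ± 0.15, limma adjusted p = 0.0275), and Tlr2, a receptor of bacterial lipoproteins, rose by 0.52 ± 0.12 (limma adjusted p = 0.0106). The Cd14 call was lost without any array except pool 1 (0.56 to 0.62), and that of Tlr2 without pool 4 (0.42) or PND 42 mouse 4 (0.49), so 1 member passed without pool 4 or mouse 4. Of 31 genes of alveolar macrophage identity 2 rose, Flt1 (1.39 ± 0.21, limma adjusted p = 0.000102) and Krt19 (0.70 ± 0.17, limma adjusted p = 0.0232), and the Krt19 call was lost without pools 1 or 4 or PND 42 mice 3 or 4 (0.65 to 0.68). In the alveolar macrophage identity list 22 changes were positive and 9 negative, with a median of 0.15, and 9 had an unadjusted p under 0.05. Its list mean ran from 9.53 to 9.62 in the pools and from 9.75 to 9.86 in the mice. Of 13 pan-macrophage genes only Cd14 passed.

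**Figure D4:**
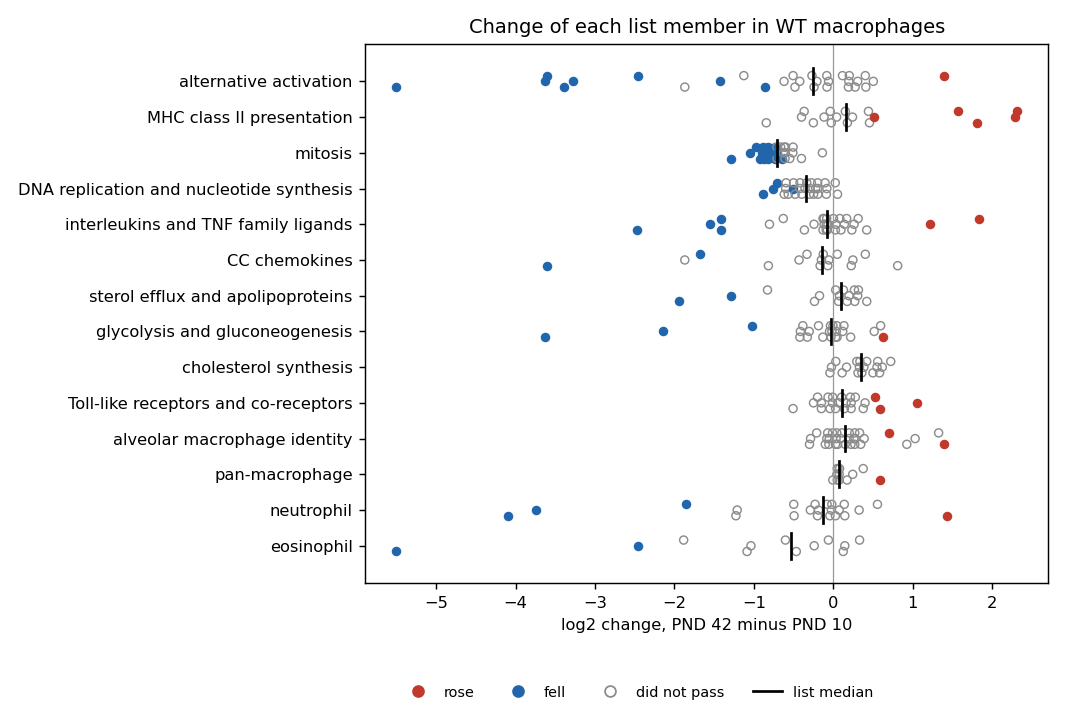
Log2 change from PND 10 to PND 42 in WT macrophages (horizontal axis) of each measured member of 14 gene lists. Red members rose, blue members fell, open circles did not pass, and bars are list medians, from -0.71 for mitosis to 0.35 for cholesterol synthesis.

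No member passed in the lists of CXC chemokines, chemokine receptors, MHC class I presentation, complement components, cholesterol synthesis, oxidative phosphorylation, GM-CSF and TGF-beta signalling, mast cells and basophils, NK cells, B cells and plasma cells, fibroblasts and smooth muscle, endothelial cells, erythroid cells or sex-linked genes, which are the 14 of 55 lists without a passing member in limma. Of their 215 measured members 30 had an unadjusted p under 0.05, as did 3249 of all 28940 features. In cholesterol synthesis 16 of 18 changes were positive with a median of 0.35, and 9 had an unadjusted p under 0.05. The T cell and innate lymphoid cell list had 2 falls and 1 rise among 18, with Il7r, the interleukin 7 receptor, at 6.40, 5.52, 5.90 and 7.78 in the pools against 4.24, 4.95, 4.60 and 4.45 (change -1.84 ± 0.40, limma adjusted p = 0.00769), a call lost without pool 4 (-1.38). That count was 1 without any of 5 arrays, among them pools 1, 3 and 4.

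The remaining lists had 1 to 5 passing members each. Interferon-stimulated genes gave 2 rises and no fall among 33, and 10 had both age means near background. In that list 28 changes were positive, with a median of 0.27. Its list mean was 5.10, 4.97, 5.08 and 5.03 in the pools and 5.26 to 5.32 in the mice. In the eicosanoid list 1 of 24 rose and 4 fell, and none passed without pool 4 or PND 42 mouse 2. The fatty acid synthesis and storage list had 3 rises and 1 fall among 26, including Pnpla5, and the fatty acid uptake and oxidation list 2 rises among 21, including Ucp3. Cell cycle inhibitors gave 1 rise and 3 falls among 23, matrix metalloproteinases and inhibitors 2 rises and 1 fall among 18, and apoptotic cell receptors 1 rise and 2 falls among 20. Over all genes 1.71% rose and 1.42% fell. With 2 to 5 passing members, such counts often moved by 1 or 2 when an array was left out.

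The WT change was then set against that of the Scnn1b-Tg littermates by testing the difference of the changes, over the same 4 arrays a group. At an adjusted p under 0.05 the changes differed in 185 features (0.639%), and in 145 of these by at least 2-fold, with the WT change above the Tg change in 44 and below it in 101. Of the 249 features called in WT, 48 differed, 32 of the falls and 16 of the rises. The WT and Tg changes share no arrays, but the 249 were chosen by the WT change, which is part of the tested difference. The count of 48 is therefore not independent of that choice.

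Several genes of alternative activation fell in WT and rose in Tg. Rnase2a fell by 5.50 in WT and rose in Tg from a mean of 6.38 to 10.20 (limma adjusted p = 0.00503), and the changes differed by -9.32 ± 1.19 (limma adjusted p = 2.37e-05). Retnla rose in Tg from 4.84 to 8.10 (limma adjusted p = 0.0055, difference -6.53 ± 1.03, limma adjusted p = 0.000452), and Fbp1 from 5.06 to 8.34 (limma adjusted p = 0.00301, difference -6.91 ± 0.97, limma adjusted p = 9.09e-05). Arg1 had Tg means of 7.24 and 8.51, a change that did not pass on its own (limma adjusted p = 0.351), and differed from WT by -4.67 ± 0.90 (limma adjusted p = 0.00703). The WT and Tg changes also differed for Ccl24 by -5.38 (limma adjusted p = 0.0134), Alox15 by -4.30 (limma adjusted p = 0.00789), Mmp12 by -2.82 (limma adjusted p = 0.00627) and Il13 by -3.69 (limma adjusted p = 0.000433).

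These differences moved with single pools of either genotype. Without pool 4 of WT PND 10 they were -8.42 for Rnase2a, -5.72 for Retnla, -6.11 for Fbp1 and -4.44 for Ccl24, and without pool 4 of Tg PND 10 they were -10.53, -7.39, -7.90 and -6.25, all still past the test. Without WT PND 10 pool 1 they were -10.15 for Rnase2a, -7.17 for Retnla and -5.99 for Ccl24, without Tg PND 10 pool 1 -8.52 for Rnase2a and -4.76 for Ccl24, without Tg PND 10 pool 2 -8.68 for Rnase2a, and without Tg PND 42 mouse 2 -7.20 for Retnla and -6.23 for Ccl24. The Ccl24 difference did not pass in a fit of the 16 arrays of these groups alone (limma adjusted p = 0.145). The Retnlg difference (-4.59, limma adjusted p = 0.0274) was lost without any of 10 arrays (-4.66 to -4.05) and was -5.38 without pool 4 of Tg PND 10. The Ccl17 difference (-3.96, limma adjusted p = 0.0238) was lost without any of 6 arrays (-3.92 to -3.28, the latter without WT PND 10 pool 4), and was -4.70 without WT PND 10 pool 1 and -4.64 without Tg PND 10 pool 4.

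Other falls of WT differed from the Tg change. Tfrc rose in Tg from 6.53 to 7.37 (limma adjusted p = 0.0068, difference -2.15 ± 0.27, limma adjusted p = 2.13e-05). Mfge8 was high in Tg at both ages, at 10.05 and 10.57, against 6.62 and 4.96 in WT (difference -2.18 ± 0.42, limma adjusted p = 0.00656). Asns had Tg means of 7.26 and 7.12 (difference -2.13 ± 0.38, limma adjusted p = 0.0034) and Trem2 of 8.71 and 8.77 (difference -1.01 ± 0.19, limma adjusted p = 0.00543). The changes of Csf1 differed by -2.14 (limma adjusted p = 0.0136) and those of Igf2bp3, which fell in both genotypes, by -0.79 (limma adjusted p = 0.0272), a call lost without any of 10 arrays (-0.79 to -0.72).

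**Figure D5:**
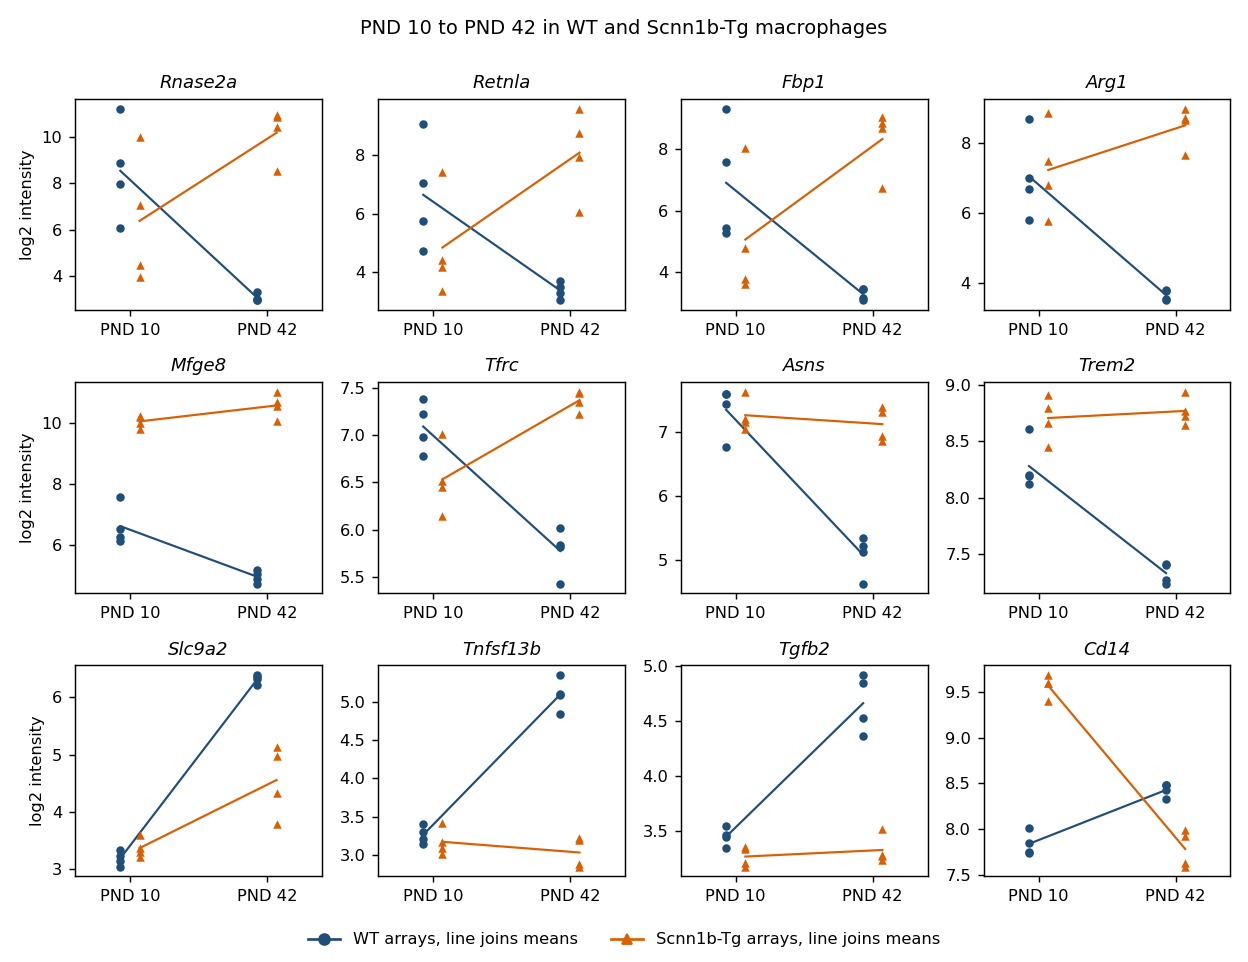
Log2 intensity (vertical axis) at PND 10 and PND 42 of 12 genes whose change differed between WT (circles) and Scnn1b-Tg (triangles), 4 arrays a group, with lines joining group means. The means of Rnase2a, Retnla, Fbp1, Arg1 and Tfrc go down in WT and up in Tg, and that of Cd14 goes up in WT and down in Tg.

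Some WT rises exceeded the Tg change. Slc9a2 went from 3.37 to 4.56 in Tg (difference 1.94 ± 0.26, limma adjusted p = 5.07e-05), Epcam from 4.07 to 4.67 (difference 1.77 ± 0.35, limma adjusted p = 0.00789) and Pnpla5 from 3.47 to 4.55 (difference 1.35 ± 0.27, limma adjusted p = 0.0103). Tnfsf13b stayed at background in Tg, at 3.17 and 3.03 (difference 1.97 ± 0.24, limma adjusted p = 1.38e-05), as did Tgfb2, at 3.27 and 3.33 (difference 1.15 ± 0.20, limma adjusted p = 0.00245). Cd14 fell in Tg, from 9.57 to 7.78 (limma adjusted p = 4.03e-09, difference 2.38 ± 0.21, limma adjusted p = 7.13e-08), and the changes of Tlr2 differed by 0.89 ± 0.17 (limma adjusted p = 0.00539).

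Cd74, H2-Ab1, H2-Aa, H2-Eb1, Mki67, Ebi3 and Apoe moved the same way in both genotypes. These 4 class II genes rose in Tg (limma adjusted p of 0.00369 or less), with means that went from 7.52 to 10.11 for Cd74, from 6.25 to 8.88 for H2-Ab1, from 7.10 to 9.44 for H2-Aa and from 5.62 to 7.78 for H2-Eb1. Their WT and Tg changes differed by -0.59 to -0.27 log2 units with limma adjusted p of 0.942 or more, which does not show that they were alike. Ciita, the remaining class II riser of WT, had Tg means of 3.70 and 3.86, a change that did not pass (limma adjusted p = 0.588, difference 0.35 ± 0.15, limma adjusted p = 0.564). Mki67 went from 8.58 to 7.84 in Tg (difference -0.14 ± 0.23, limma adjusted p = 0.998), Ebi3 from 8.04 to 5.79 (difference -0.22 ± 0.38, limma adjusted p = 0.998) and Apoe from 10.32 to 7.94 (difference 0.44 ± 0.37, limma adjusted p = 0.924).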

How the data were processed

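RNA of Ly-6G-negative lavage cells was amplified from 12 ng per array and hybridised to the 1.0 ST version of the Affymetrix mouse gene array, with 36 arrays in 10 groups. The values deposited by the authors are log2 intensities, made per the labels in Partek (version 6.5) by RMA, which corrects background, normalizes quantiles over arrays and summarizes probes. Of 35556 rows, 6616 that carry no annotation were left out and 28940 features were tested. Of these, 21218 have 1 gene symbol in the platform annotation, 1881 several and 5841 none, and only the first kind was named. For a gene with several features, the one of highest mean was taken.

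The log2 values were fitted with limma 3.58.1 (R 4.3.3), with a mean for each of the 10 groups and moderated standard errors, and the contrast WT PND 42 minus WT PND 10 was read two-sided with Benjamini-Hochberg adjustment over 28940 features. The fit was checked on simulated arrays. Genes were named by rule, as the 15 largest called rises and falls, up to 6 members of a list with the smallest adjusted p, the macrophage markers and the sex-linked genes, and Il13, Il4, Prg2, Ccr3, Epx, Ccl17 and H2-DMa were added after their values were seen. Members and the 55 lists (965 distinct genes measured) were chosen with earlier results of these data known. In 3 lists, complement components, histones and erythroid genes, under 80% of members were measured. Promoters came from RefSeq (GRCm38.p6), of which 32851 were searched. Alternatives covered the arrays fitted, array weights, normalization, moderation, dim features, 1 feature per gene, a block for the replicate number and fits without single arrays. The depth of an array is not a count, and the number of arrays limits the precision. Labels call the arrays biological replicates.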

Additional observations from a re-analysis of the deposited data

Results flagged for a closer look

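For 23 of the 86 genes described above, the change from PND 10 to PND 42 differed between WT and Scnn1b-Tg by limma's test of the difference. Many of these genes were chosen by their WT change, which is part of that difference. The WT change lay below the Tg change by -9.32 for Rnase2a, -6.91 for Fbp1, -6.53 for Retnla, -5.38 for Ccl24, -4.67 for Arg1, -4.59 for Retnlg, -4.30 for Alox15, -3.96 for Ccl17, -3.69 for Il13, -2.82 for Mmp12, -2.18 for Mfge8, -2.15 for Tfrc, -2.14 for Csf1, -2.13 for Asns, -1.01 for Trem2 and -0.79 for Igf2bp3, all in log2 units. It lay above the Tg change by 2.38 for Cd14, 1.97 for Tnfsf13b, 1.94 for Slc9a2, 1.77 for Epcam, 1.35 for Pnpla5, 1.15 for Tgfb2 and 0.89 for Tlr2. Of the other 44 genes that the naming rule chose, 3 differed as well, Ptgir by -2.53, Clec12a by 1.97 and Itga4 by 0.91.

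Among 172 groups of 4 arrays checked for a single array far from the other 3, 8 stood out, where chance alone gives about 1 in 20 groups. The gap to the nearest array, as a share of the group's range, was 0.867 for Ucp3 and 0.854 for Ccr3, both high in PND 10 pool 4. It was 0.974 for Car4 and 0.846 for H1f1, low in PND 10 pool 1, and 0.846 for Trem2, high in that pool. At PND 42 it was 0.839 for Il4 (mouse 2, low), 0.844 for Il1b (mouse 1, high) and 0.916 for Igf2bp3 (mouse 4, high).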

How the results depend on the processing

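With an adjusted p under 0.05 and no fold limit, 724 features passed in place of 249, 381 higher and 343 lower. At 4-fold 35 passed, 15 higher and 20 lower, and the difference between WT and Scnn1b-Tg was called in 51 features in place of 145. At an adjusted p under 0.01 and 2-fold that difference was called in 71. Leaving out each array in turn gave 206 to 252 called features, 95 to 115 higher and 107 to 142 lower, and 99 to 163 for the difference. A fit of 1 feature per gene, which tested fewer features, called 211, and 204 of them were among the 249. Other fits gave 225 (quantile normalization once more) to 279 (array weights) called features. Of the 130 genes named by rule or chosen after their values were seen, 107 passed with all arrays, and of these 25 lost the call under at least 1 alternative other than leaving out an array and 48 with some array left out, and none reversed. For Marco and Pparg, which did not pass, the change with an array left out ranged from -0.050 to 0.288 for Marco, with the lowest value without PND 10 pool 1, and from -0.025 to 0.074 for Pparg, which was negative without PND 42 mouse 2 and without PND 10 pool 4 (-0.0045), against positive values with all arrays. The cause of these shifts was not tested. The labels number replicates 1 to 4 at both ages, but pools and single mice cannot be the same animals, and deviations of arrays with the same number correlated between -0.06 and -0.01, so the numbers do not pair the samples. With the replicate block 244 features were called, 243 of them among the 249, and 5 of the 107 genes lost the call. Values near the array medians do not resolve further falls.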
